A study of Mus musculus with 18 samples.

Results

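The genes described here are 36 genes of the cellular response to low oxygen and of glycolysis, picked by symbol from the 32015 gene symbols of the expression tables. They fall into 5 roles. Of these, 3 are regulators, 2 are membrane transporters, 15 are enzymes of the path from glucose to lactate, 2 are bifunctional enzymes that set the level of a glycolytic activator, and 14 are other genes known to rise under low oxygen. Their mRNA was measured in 18 libraries of cultured cells. Hepa1-6, grown from a mouse liver tumour, gave 9 libraries, and B16, grown from a mouse melanoma, gave the other 9. Each line has 3 groups of 3 libraries: a control guide RNA (sgCtrl, labelled WT), and the guides sgNcor1-1 and sgNcor1-2, both labelled Ncor1 knockout. Ncor1 encodes a nuclear receptor corepressor, and the study concerns its loss in cancer cells. No drug, oxygen setting or time point is given in the labels, nor whether the knockout cells were a clone or a pool. The 3 libraries of a group carry the replicate numbers 1, 2 and 3, with nothing to say what a number stands for.

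Cells answer low oxygen through HIF1A, a transcription factor subunit that is made all the time and destroyed when oxygen is present. The prolyl hydroxylases EGLN1 and EGLN3 use oxygen to mark HIF1A for destruction, so that without oxygen it accumulates, pairs with ARNT and binds the short DNA motif ACGTG or GCGTG near its targets. Many of these targets carry glucose through glycolysis to lactate, which yields energy without oxygen, and others act on vessels, mitochondria, collagen and pH. Because oxygen acts on the HIF1A protein, the Hif1a mRNA itself need not move with its targets. Tumour lines often run glycolysis at a high rate even with oxygen.

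Of the 36 genes, 34 had promoters in the RefSeq table (build GRCm38.p6), and 32 of these 34 (94.1%) held ACGTG or GCGTG on either strand within the 250 bases before an annotated start. The same letters occurred in 41.5% of the 27025 genes in that table. Promoters of these genes were richer in CpG, with a median of 14 against 6, and among promoters with at least 10 CpG a match stood in 31 of 37 (83.8%) against 64.2% of all such promoters. Gpi1 and Tpi1 held no match in this window. The promoters of the 5 genes with the smallest p in the comparison of Hepa1-6 replicate numbers below are shown for the number and spacing of these matches. Capitals mark these motifs on the printed strand or, as their reverse complements, on the other. Overlapping matches on opposite strands were each counted.
Aldoc, chr11:78322823-78323072, plus strand: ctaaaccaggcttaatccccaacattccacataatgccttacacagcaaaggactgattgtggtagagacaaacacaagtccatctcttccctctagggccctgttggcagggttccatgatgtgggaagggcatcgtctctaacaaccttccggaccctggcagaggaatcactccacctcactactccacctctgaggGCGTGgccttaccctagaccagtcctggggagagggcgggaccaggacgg
Egln3, chr12:54203875-54204124, minus strand: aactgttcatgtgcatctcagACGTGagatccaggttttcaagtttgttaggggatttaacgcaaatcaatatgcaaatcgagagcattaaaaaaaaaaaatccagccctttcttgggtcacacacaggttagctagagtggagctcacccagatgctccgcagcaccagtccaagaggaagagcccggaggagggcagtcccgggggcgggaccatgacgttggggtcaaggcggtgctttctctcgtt
Pgk1, chrX:106186850-106187099, plus strand: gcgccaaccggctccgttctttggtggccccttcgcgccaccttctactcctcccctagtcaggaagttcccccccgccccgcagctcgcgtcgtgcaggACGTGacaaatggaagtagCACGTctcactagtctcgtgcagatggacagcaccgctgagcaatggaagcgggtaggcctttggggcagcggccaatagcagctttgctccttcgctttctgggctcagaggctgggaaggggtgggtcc
Ankrd37, chr8:45999851-46000100, minus strand: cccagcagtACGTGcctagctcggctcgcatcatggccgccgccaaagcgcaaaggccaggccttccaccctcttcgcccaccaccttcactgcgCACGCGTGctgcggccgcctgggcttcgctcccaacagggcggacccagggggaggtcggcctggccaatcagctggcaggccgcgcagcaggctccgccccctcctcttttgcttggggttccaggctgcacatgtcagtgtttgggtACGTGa
Bnip3, chr7:138909507-138909756, minus strand: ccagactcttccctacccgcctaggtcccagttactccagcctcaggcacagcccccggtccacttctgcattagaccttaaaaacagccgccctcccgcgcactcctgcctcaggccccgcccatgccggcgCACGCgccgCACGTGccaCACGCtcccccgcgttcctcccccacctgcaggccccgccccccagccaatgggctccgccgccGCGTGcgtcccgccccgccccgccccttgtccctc
Aldoc and Egln3 held 1 match each, Pgk1 held 2, Ankrd37 held 4 and Bnip3 held 5. A match is a string of letters and was not tested as a binding site.

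The Hepa1-6 libraries held 17689335 to 30819689 counts and the B16 libraries 15663983 to 25263749. Levels below are in CPM, counts scaled to a common library total with TMM factors. In bulk RNA, fewer cells with a transcript and less of it per cell cannot be told apart. Markers of the labelled cell types were present: 8 of 10 hepatocyte markers had a mean over 1 CPM in Hepa1-6 (summed level 1100 to 1680 CPM), and 8 of 8 melanocyte markers did in B16 (4890 to 18500 CPM). Alb and Afp were at 0 in every B16 library, and Tyrp1 and Dct in every Hepa1-6 library. Other members of these lists were present: the hepatocyte markers summed to 88.7 to 150 CPM in B16, with 1 over 1 CPM on average. The melanocyte markers summed to 0.948 to 3.95 CPM in Hepa1-6, also with 1 over 1 CPM. Libraries stood apart by replicate number. On the first principal component of Hepa1-6, which held 55.9% of the variance, the number 1 libraries were at -18.3, -56.2 and -55.6 and the other 6 lay between 9.2 and 30.3. In B16 the first component held 50.8%, and the sgNcor1-1 library with number 1 lay furthest out, at -74.7. That library also had the fewest detected genes, 13982. The targeted gene Ncor1 was at 266, 264 and 222 CPM in the Hepa1-6 controls (numbers 1, 2 and 3), at 197, 130 and 177 CPM with sgNcor1-1, and at 149, 140 and 186 CPM with sgNcor1-2. All 6 Hepa1-6 knockout libraries were below all 3 controls, with a log2 fold change of -0.62 ± 0.17 (SE) and an edgeR adjusted p of 0.223. The B16 controls held Ncor1 at 279 to 327 CPM and the B16 knockout libraries at 237 to 367 CPM, which overlap (-0.06 ± 0.19, edgeR adjusted p of 1). An mRNA level does not show whether a guide disrupted the protein.

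**Figure D1:**
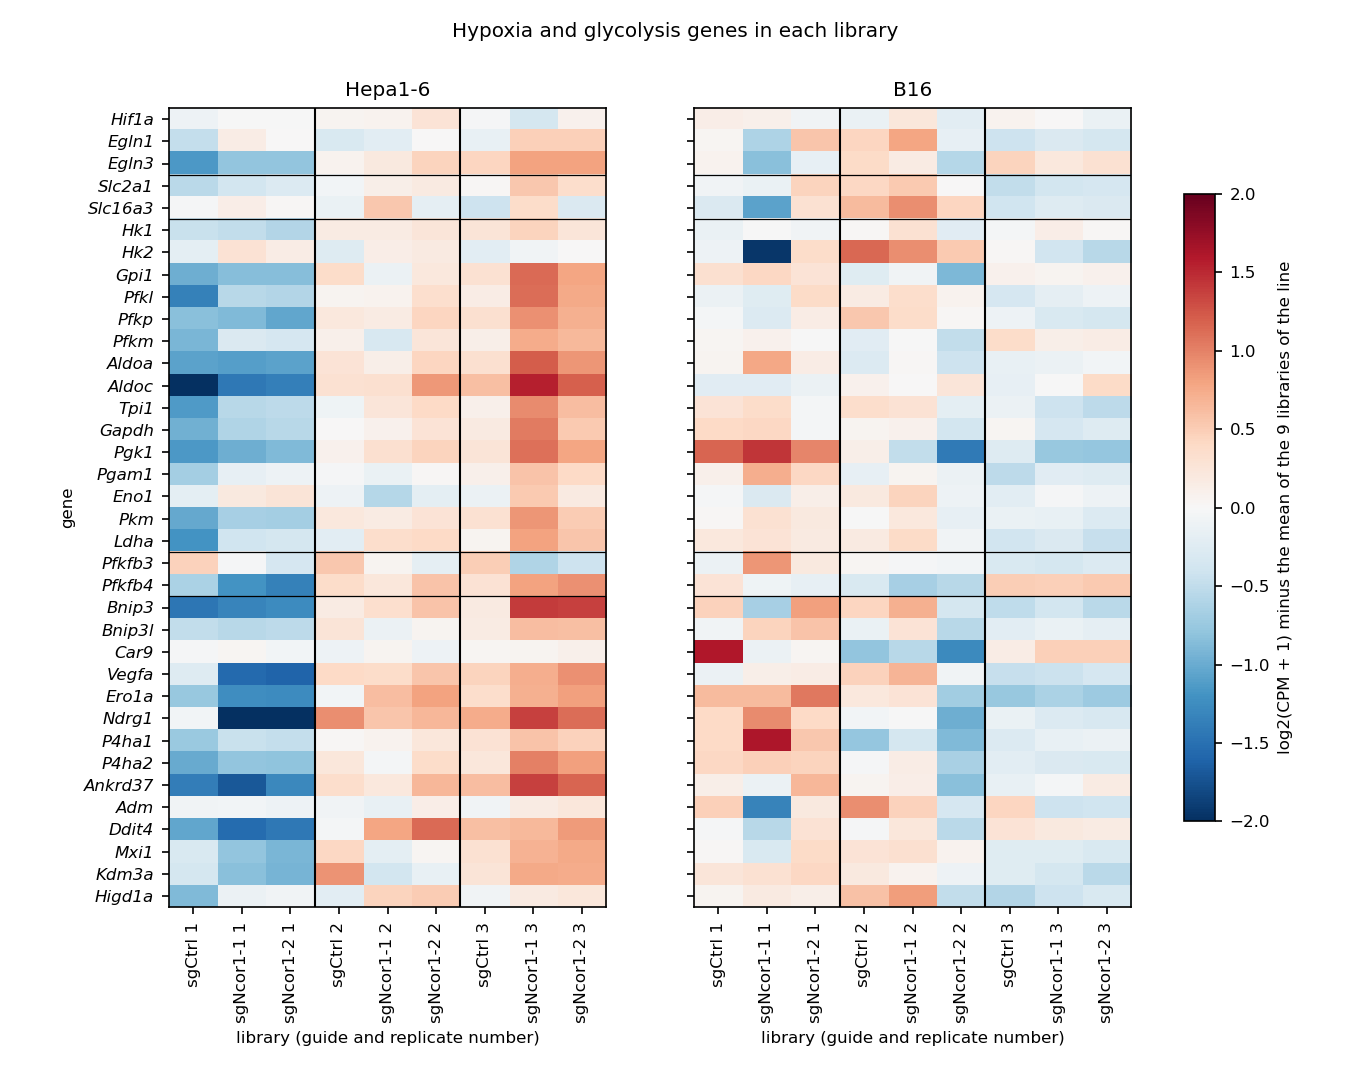
Level of each of the 36 genes in each library, as log2(CPM + 1) minus the mean of the 9 libraries of the same line; rows are genes grouped by role and columns are libraries ordered by replicate number, with vertical lines between numbers. In Hepa1-6 the 3 libraries with number 1 are low in most rows whatever the guide.

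Levels in the control cells were compared first. Most of these genes were lower in Hepa1-6 controls than in B16 controls: 22 of 36 were called lower, 1 was called higher, and 59.4% of all genes tested were called in either direction (29.8% lower, 29.6% higher). The median log2 difference, Hepa1-6 minus B16, was -1.47 over the 36 genes and 0 over all genes. By role, 10 of 15 glycolytic enzymes, 8 of 14 other hypoxia-induced genes, 2 of 3 regulators, 1 of 2 transporters and 1 of 2 bifunctional enzymes were called lower. The lines are in separate tables, so line and table cannot be told apart. Called means an edgeR adjusted p under 0.05, adjusted over all genes of a comparison. These counts come from a fit without the replicate number. With the number as a term (a block), edgeR also called Aldoa, Pgk1, Ankrd37, Pkm, P4ha2, Ddit4, Pfkfb4, Egln3, Ndrg1, Kdm3a and Vegfa. The block takes differences between numbers out of the spread, and the numbers of the lines are separate series.

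Among the regulators, Hif1a was at 231 to 257 CPM in the 3 Hepa1-6 controls and at 337 to 415 CPM in the 3 B16 controls, on the scale shared by both lines. These ranges did not overlap, and the log2 difference was -0.65 ± 0.17 (SE, edgeR adjusted p of 0.00282). The hydroxylase pair differed in balance. Per kilobase of exon, Egln3 made up 62.4% ± 11.2 (SD, n = 3) of the summed level of Egln1 and Egln3 in Hepa1-6 controls and 22.8% ± 6.46 (SD, n = 3) in B16 controls. Without the block, Egln1 was the called member of the pair (edgeR adjusted p of 0.000136), and Egln3 was not (0.72 ± 0.47, adjusted p of 0.201).

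Slc2a1, the glucose importer GLUT1, had overlapping levels in the lines, 167 to 248 CPM in Hepa1-6 controls and 137 to 252 CPM in B16 controls. Slc16a3, the lactate exporter MCT4, was close to absent in Hepa1-6. Its counts summed to 24 in the 3 Hepa1-6 controls and to 13173 in the 3 B16 controls, a 560-fold higher share in B16 with a 95% counting interval of 377 to 875. Adm, which encodes the vasodilator peptide adrenomedullin, had 3 counts against 5742, a ratio of 1950 (668 to 9480). Car9, a surface carbonic anhydrase that acts on pH, had 3 counts against 1305, a ratio of 444 (152 to 2160). Of the 1305 counts, 856 came from the B16 control with number 1, and without that library, left out after seeing the data, the ratio was 237 (80.6 to 1150). The opposite case was Aldoc, an aldolase better known from brain, with 1450 counts in Hepa1-6 controls and 5 in B16 controls, a ratio of 284 (121 to 876) in favour of Hepa1-6. These intervals cover counting error only.

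Per kilobase of exon, 9 of the 15 glycolytic enzymes (Gapdh, Pkm, Aldoa, Pgk1, Ldha, Tpi1, Eno1, Pgam1 and Gpi1) held the 9 highest levels of the 36 genes in both lines, while Aldoc ranked 28 in Hepa1-6 and 36 in B16. Gapdh ranked first in both (its reads, like those of Pgk1, Pgam1, Eno1 and Pkm, were partly shared out among similar sequences), at 2420 ± 896 CPM per kilobase (SD, n = 3) in Hepa1-6 controls and 9942 ± 1430 in B16 controls. Pkm (pyruvate kinase), Aldoa (the main aldolase) and Pgk1 (phosphoglycerate kinase) followed in Hepa1-6, at 1086 ± 462, 857 ± 381 and 763 ± 335 CPM per kilobase. These neighbours in the order lay within each other's spread. In B16, Eno1 (enolase) stood second at 2572 ± 369 CPM per kilobase, and it was the glycolytic enzyme with the smallest p between lines, at 1010 ± 34.5 CPM in Hepa1-6 and 6463 ± 850 CPM in B16 (log2 difference -2.68 ± 0.27 SE, edgeR adjusted p of 3.73e-07). Pkm, Aldoa and Pgk1 missed the threshold between lines, with adjusted p of 0.148, 0.0572 and 0.0827, and Hk1, a hexokinase, was at -0.03 ± 0.26 (adjusted p of 0.93). With the replicate block Pkm, Aldoa and Pgk1 passed it (edgeR adjusted p of 0.000238, 2.39e-05 and 2.41e-05).

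Most enzyme families had the same leading member in both lines at different shares. By mean share, the leading member differed in the Pfkfb3 and Pfkfb4 pair and in the Egln1 and Egln3 pair above. In the Hepa1-6 control with number 1 these pairs were near even, with Pfkfb3 at 51.3% and Egln1 at 50.4%. Per kilobase, Hk1 made up 82.5% ± 4.29 of the hexokinase pair Hk1 and Hk2 in Hepa1-6 controls and 61.4% ± 10.5 in B16 controls (SD, n = 3). Among the phosphofructokinases, Pfkl held 57.9% ± 3.78, Pfkp 22.9% ± 1.77 and Pfkm 19.1% ± 2.07 in Hepa1-6 controls. In B16 controls Pfkl held 45.9% ± 2.52, Pfkp 38.3% ± 4.09 and Pfkm 15.8% ± 5.21. Aldoc was 0.829% ± 0.373 of the summed Aldoa and Aldoc level in Hepa1-6. Pfkfb3 and Pfkfb4 make and remove fructose-2,6-bisphosphate, the activator of phosphofructokinase. Pfkfb3 held 40.2% ± 9.57 of the pair in Hepa1-6 controls and 80.6% ± 6.49 in B16 controls. The ranges of Hk1, Pfkl, Pfkp and Pfkfb3 over the 3 controls did not overlap between lines, those of Pfkm did, and the differences in share were not tested.

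Of the other hypoxia-induced genes, Ero1a, an oxidase of disulfide formation in the endoplasmic reticulum, was at 133 to 289 CPM in Hepa1-6 controls and 2047 to 5384 CPM in B16 controls (log2 difference -4.15 ± 0.70 SE, edgeR adjusted p of 8.49e-05). The mitophagy receptors Bnip3 and Bnip3l and the mitochondrial protein gene Higd1a were also called lower in Hepa1-6, by 1.98, 1.46 and 1.99 on the log2 scale in edgeR. Vegfa, which encodes the main vessel growth factor, and Ndrg1, a stress-induced growth regulator, were not called without the block (0.64 ± 0.54 and 1.00 ± 0.79). The control levels of Vegfa overlapped between lines (209 to 339 CPM in Hepa1-6 and 135 to 253 CPM in B16). Those of Ndrg1 did not (286 to 561 CPM against 191 to 280.4 CPM).

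**Figure D2:**
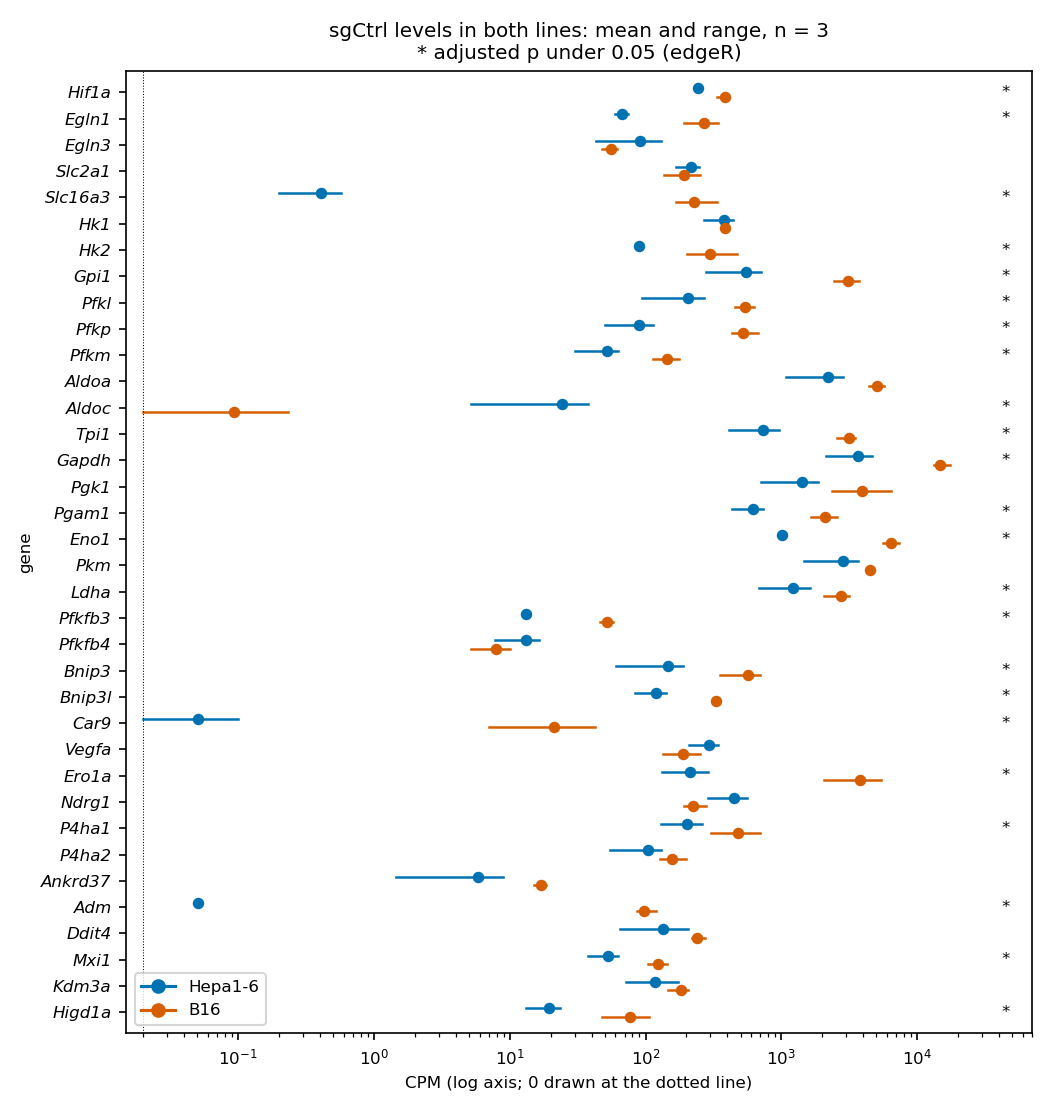
Control (sgCtrl) levels of the 36 genes in Hepa1-6 (blue) and B16 (orange) in CPM on a log axis; points are means and lines run from the lowest to the highest of 3 libraries, and a star marks an edgeR adjusted p under 0.05. Most orange points lie to the right of the blue ones, and Aldoc, Vegfa, Ndrg1, Egln3, Pfkfb4 and Slc2a1 lie the other way.

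The main comparison of the study is Ncor1 knockout against control. In Hepa1-6, none of the 34 genes tested was called, with either guide or with the mean of both. Of all genes, 0.201% were called for the mean of both guides (0.0482% with sgNcor1-1 and 0.0803% with sgNcor1-2). At an unadjusted p under 0.05 there were 4 of the 34 genes for the mean of both guides, against 11.1% of all genes. There were 3 with sgNcor1-1 (7.54% of all genes) and 2 with sgNcor1-2 (7.65%). DESeq2 called 1, 0 and 1 of the 34 genes in these comparisons and limma-voom called 0 in each. The main fit leaves out the replicate number. With the number as a block, edgeR called Ldha, Tpi1 and Pfkfb3 for the mean of both guides (adjusted p of 0.02, 0.0394 and 0.039). Ldha was also called with sgNcor1-1. Same-numbered Hepa1-6 libraries did not deviate together throughout (correlations -0.02 to 0.94). The lowest was between sgCtrl and sgNcor1-1 in number 2. Control and knockout libraries correlated at -0.02 to 0.59, and the libraries of the knockout guides at 0.76 to 0.94. Without the number 1 libraries, left out after seeing the data, the block called 0. That fit has fewer libraries to estimate the spread, so it cannot decide whether the calls depend on number 1. In numbers 2 and 3, log2 differences to the same-number control were 0.50 to 0.75 for Ldha and 0.33 to 0.84 for Tpi1. For Pfkfb3 they were -1.10 to -0.48. In the main fit, most fold changes were above 0 without passing the test. In all, 29 of 34 were above 0 with a median of 0.34 on the log2 scale, where 52.6% of all genes were above 0 and their median was 0.02. This count moved when single libraries were left out: without the control library with number 1 it was 19 of 34 with a median of 0.05, and without the sgNcor1-1 library with number 3 it was 23 with a median of 0.12. Leaving out 1 library also unbalances the replicate numbers, which this fit ignores. Most of these genes were low in number 1 with every guide, so dropping its control alone raises their control mean. The 15 glycolytic enzymes lay between 0.03 and 0.65, the 3 regulators between 0.04 and 0.48, and the 12 other hypoxia-induced genes tested between -0.33 and 0.75. Car9 and Adm had too few counts in Hepa1-6 to be tested.

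The 4 genes with the smallest p were Pfkfb3, Hk2, Egln1 and Higd1a. Pfkfb3 was at 12.7, 13.5 and 13.0 CPM in the controls (numbers 1, 2 and 3), at 8.87, 9.42 and 5.56 CPM with sgNcor1-1 and at 6.89, 7.83 and 6.48 CPM with sgNcor1-2. Every knockout library was below every control. The log2 fold change was -0.80 ± 0.22 (SE, edgeR adjusted p of 0.218). Pfkfb3 was called in 2 of the 17 alternative settings run for it, so the missing call depends on the model. Hk2, the inducible hexokinase, was at 89.9, 85.6 and 88.3 CPM in the controls, at 126, 113 and 97.9 CPM with sgNcor1-1 and at 114, 116 and 103 CPM with sgNcor1-2. Here every knockout library was above every control, with a log2 fold change of 0.34 ± 0.13 (SE, edgeR adjusted p of 0.382). Hk2 and Pfkfb3 were the 2 of 34 genes (5.88%) whose knockout and control libraries did not overlap, against 9.13% of all genes.

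For Egln1 the controls were at 58.4, 65.7 and 73.6 CPM and the knockout libraries at 70.5 to 114 CPM, so that the groups overlapped (0.48 ± 0.19 SE, edgeR adjusted p of 0.406). For Higd1a the controls were at 13.0, 21.1 and 23.4 CPM and the knockout libraries at 22.7 to 35.4 CPM, which also overlap (0.58 ± 0.24, adjusted p of 0.427). Ldha, the lactate dehydrogenase subunit that favours lactate, followed them in order of p. It was at 679, 1342 and 1621 CPM in the controls, at 1180, 1981 and 2727 CPM with sgNcor1-1 and at 1220, 2058 and 2294 CPM with sgNcor1-2. Each knockout library exceeded the control of its own number, and the groups overlapped because number 1 was low throughout (0.65 ± 0.35 SE, edgeR adjusted p of 0.531).

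**Figure D3:**
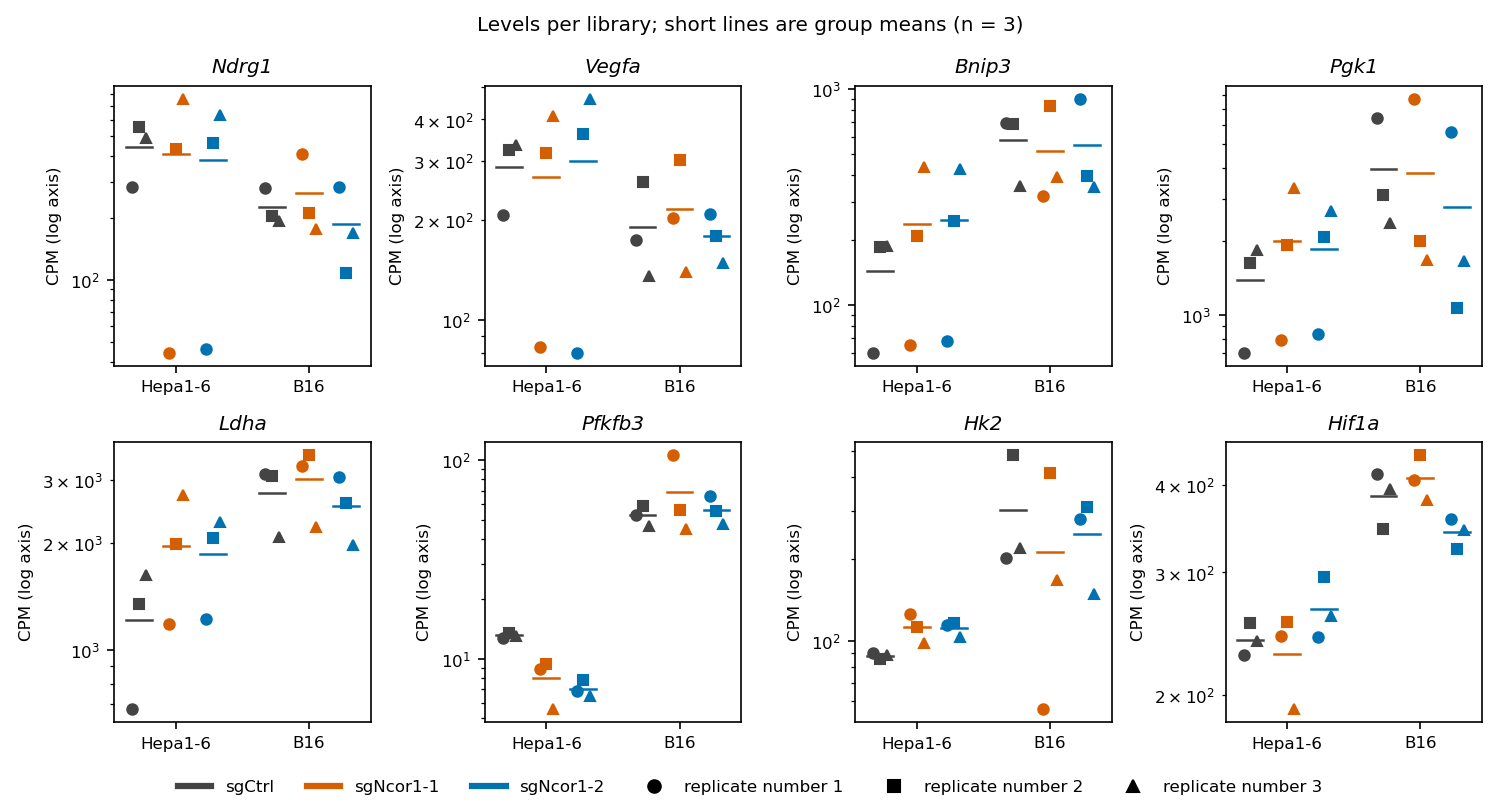
CPM per library (log axis) of 8 of the genes in both lines; colour gives the guide, the marker shape gives the replicate number, and short lines are group means (n = 3). In Hepa1-6 Pfkfb3 is lower and Hk2 higher in every knockout library than in every control. Bnip3, Pgk1 and Ldha are lower in every number 1 library than in the others, while their levels in numbers 2 and 3 overlap. Each of these genes is also above the control of its own number in every knockout library. Hif1a separates by neither guide nor number.

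Knockout and control libraries of the same number were also set side by side in Hepa1-6, as differences of log2(CPM + 1). In 13 of 34 genes all 6 differences were above 0, namely Slc2a1, Hk2, Pfkl, Aldoc, Tpi1, Gapdh, Pgk1, Ldha, Bnip3, Egln1, Egln3, P4ha1 and Higd1a, against 11.2% of all genes. In 1 gene, Pfkfb3, all 6 were below 0, against 12.9% of all genes. The 6 differences share 3 control libraries. For Ldha they ran from 0.50 to 0.84 and for Tpi1 (triosephosphate isomerase) from 0.33 to 0.84.

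These differences were set out by number. With number 1 the medians over the 34 genes were 0.16 (sgNcor1-1) and 0.19 (sgNcor1-2), with number 2 they were 0 and 0.21, and with number 3 they were 0.59 and 0.45. Over all genes the same 6 medians lay between -0.02 and 0.02. In number 3, 32 of the 34 genes were above the control with each guide, against 49.9% and 48.1% of all genes. Ndrg1 changed sign between numbers. Its level was 283 CPM in the number 1 control against 44.2 and 46.4 CPM in the number 1 knockout libraries, and 488 CPM against 759 and 635 CPM in number 3. As log2 differences these were -2.65 and -2.58 in number 1, -0.37 and -0.26 in number 2, and 0.64 and 0.38 in number 3. Vegfa went the same way, at -1.30 and -1.36 in number 1, -0.03 and 0.15 in number 2, and 0.28 and 0.45 in number 3. Whether the knockout effect differs between numbers was not tested, and each number has 1 control library.

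**Figure D4:**
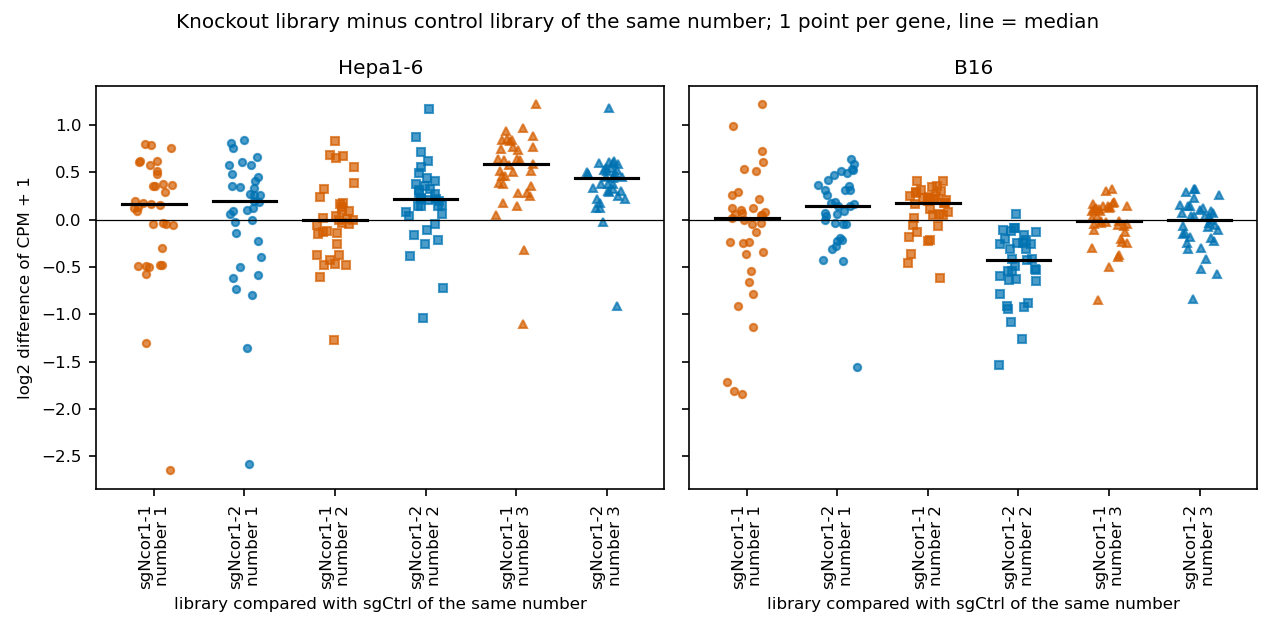
Difference of log2(CPM + 1) between each knockout library and the control library of the same replicate number, with 1 point per gene tested and black lines at the medians. In Hepa1-6 both number 3 libraries are above 0 for 32 of 34 genes and Ndrg1 is the lowest point of number 1, and in B16 the sgNcor1-2 library with number 2 is below 0 for 34 of 35 genes.

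In B16, none of the 35 genes tested was called for the mean of both guides, where 0.0324% of all genes were called, nor with sgNcor1-1 (0.0081%) or sgNcor1-2 (0.0081%). DESeq2 and limma-voom also called 0. At an unadjusted p under 0.05 each single guide gave 0 of the 35 genes, against 2.15% of all genes with sgNcor1-1 and 1.83% with sgNcor1-2. Aldoc had too few counts to be tested. The numbers pair the B16 libraries, and a fit with the replicate number as a block also called 0. The fold changes were spread about 0: 16 of 35 were above 0 with a median of -0.02, against 52.9% and 0.01 over all genes. No gene of the 35 had knockout and control libraries that did not overlap, against 2.18% of all genes.

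Adm had the smallest p in B16 and was the 1 gene of 35 with an unadjusted p under 0.05, against 2.36% of all genes. It was at 89.0, 122 and 86.4 CPM in the controls, at 24.8, 88.2 and 47.5 CPM with sgNcor1-1 and at 72.9, 50.4 and 47.9 CPM with sgNcor1-2. In each number both knockout libraries were below the control, while the groups overlapped (-0.84 ± 0.34 SE, edgeR adjusted p of 1). Egln3 was the other gene below its same-number control in all 6 differences (-0.40 ± 0.27), and Pgam1, phosphoglycerate mutase, was above it in all 6 (0.31 ± 0.27). All genes gave 6.91% and 5.74% with 6 differences below and above 0.

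Single B16 libraries stood out. The sgNcor1-2 library with number 2 was below its control in 34 of 35 genes with a median of -0.43 (50% of all genes, median 0), and its Pgk1 level was 1071 CPM against 3109 CPM in the control. The sgNcor1-1 library with number 1, the one that lay furthest out on the first component, had Hk2 at 55.9 CPM against 202 CPM in its control and P4ha1, a collagen prolyl hydroxylase, at 1625 CPM against 697 CPM. Without that library, 0 of the genes were called between knockout and control.

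The guides did not differ from each other in a called way. In both lines 0 of the genes were called between sgNcor1-2 and sgNcor1-1, where 0% of all genes were called, and at an unadjusted p under 0.05 edgeR gave 0 of these genes in each line (0.0722% of all genes in Hepa1-6 and 0.373% in B16). DESeq2 and limma-voom called 0 as well. The difference of the knockout effect between the lines was called for 0 of 36 genes, against 0.178% of all genes. DESeq2 and limma-voom called 0. At an unadjusted p under 0.05 there was 1 (6.91% of all genes), Pfkfb3, with a log2 difference (Hepa1-6 effect minus B16 effect) of -1.03 ± 0.34 (SE, edgeR adjusted p of 0.472). With the replicate number as a block, edgeR called Tpi1 (0.83, adjusted p of 0.0217) and Ldha (0.68, adjusted p of 0.0396) for this difference. Same-numbered Hepa1-6 libraries did not deviate together throughout.

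Far more of these genes were called between replicate numbers than between knockout and control, but the fits were unlike. The number tests held the guide fixed, whereas the knockout tests left differences between numbers in the spread. With the number as a block, the Hepa1-6 knockout test called Ldha, Tpi1 and Pfkfb3. In Hepa1-6, 28 of 34 genes differed among the 3 numbers with the guide held fixed, against 30.8% of all genes. The 6 not called were Hif1a, Egln1, Hk2, Eno1, Slc16a3 and Pfkfb3. When number 1 was set against numbers 2 and 3, the same 28 genes were lower and none was higher, where 20.6% of all genes were lower, 21.3% were higher and 41.9% were called in either direction. The median was -1.12 over the 34 genes and 0.01 over all genes. By role, 12 of 12 other hypoxia-induced genes, 13 of 15 glycolytic enzymes, 1 of 3 regulators, 1 of 2 transporters and 1 of 2 bifunctional enzymes were lower. In 24 of 34 genes all 3 number 1 libraries were below all 6 others, against 16.4% of all genes.

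Aldoc was at 5.13, 8.36 and 8.71 CPM in the number 1 libraries (sgCtrl, sgNcor1-1 and sgNcor1-2), at 30.1, 30.5 and 44.8 CPM in number 2 and at 37.2, 72.6 and 56.4 CPM in number 3. Its log2 fold change, number 1 against the others, was -2.59 ± 0.20 (SE, edgeR adjusted p of 0.000153). Egln3, which dampens the response it belongs to and has 1 motif match in the promoter printed above, was at 42.5, 54.9 and 54.9 CPM in number 1 and at 100.5 to 169 CPM in the other 6 libraries. The groups of number 1 and the rest did not overlap for either gene (Egln3, -1.39 ± 0.11 SE, edgeR adjusted p of 0.000178).

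Pgk1 was at 698, 787 and 838 CPM in number 1 and at 1629 to 3303 CPM in the others (-1.50 ± 0.14, edgeR adjusted p of 0.000304). Ankrd37, an ankyrin repeat gene known as a HIF1A target, was at 1.44, 0.978 and 1.60 CPM in number 1 and at 6.39 to 15.4 CPM in the others. That is the lowest fold change of the 34 genes, -2.87 ± 0.27. Bnip3 was at 59.8, 65.3 and 68.2 CPM in number 1 and at 184 to 437 CPM in the others (-2.04 ± 0.20, edgeR adjusted p of 0.000339).

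The remaining called genes shared the direction with smaller or less even changes. Ddit4, an inhibitor of the growth kinase complex mTORC1, was at -2.01 ± 0.24, Pfkfb4 at -1.74 ± 0.26, Aldoa at -1.63 ± 0.18 and Ero1a at -1.62 ± 0.22 on the log2 scale in edgeR. The smallest called changes were in Pgam1 (-0.47 ± 0.13), Higd1a (-0.55 ± 0.15) and Slc2a1 (-0.59 ± 0.11). Pfkp, Gpi1 (glucose phosphate isomerase), P4ha2, Pfkl, Pkm, Kdm3a (a histone demethylase), Tpi1, Gapdh, Mxi1 (a MYC antagonist), Ldha, P4ha1, Bnip3l, Pfkm and Hk1 lay between -1.40 and -0.77. Hif1a itself was at 228, 243 and 242 CPM in number 1 and at 191 to 296 CPM in the others, which overlap (-0.05 ± 0.12, edgeR adjusted p of 0.731).

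**Figure D5:**
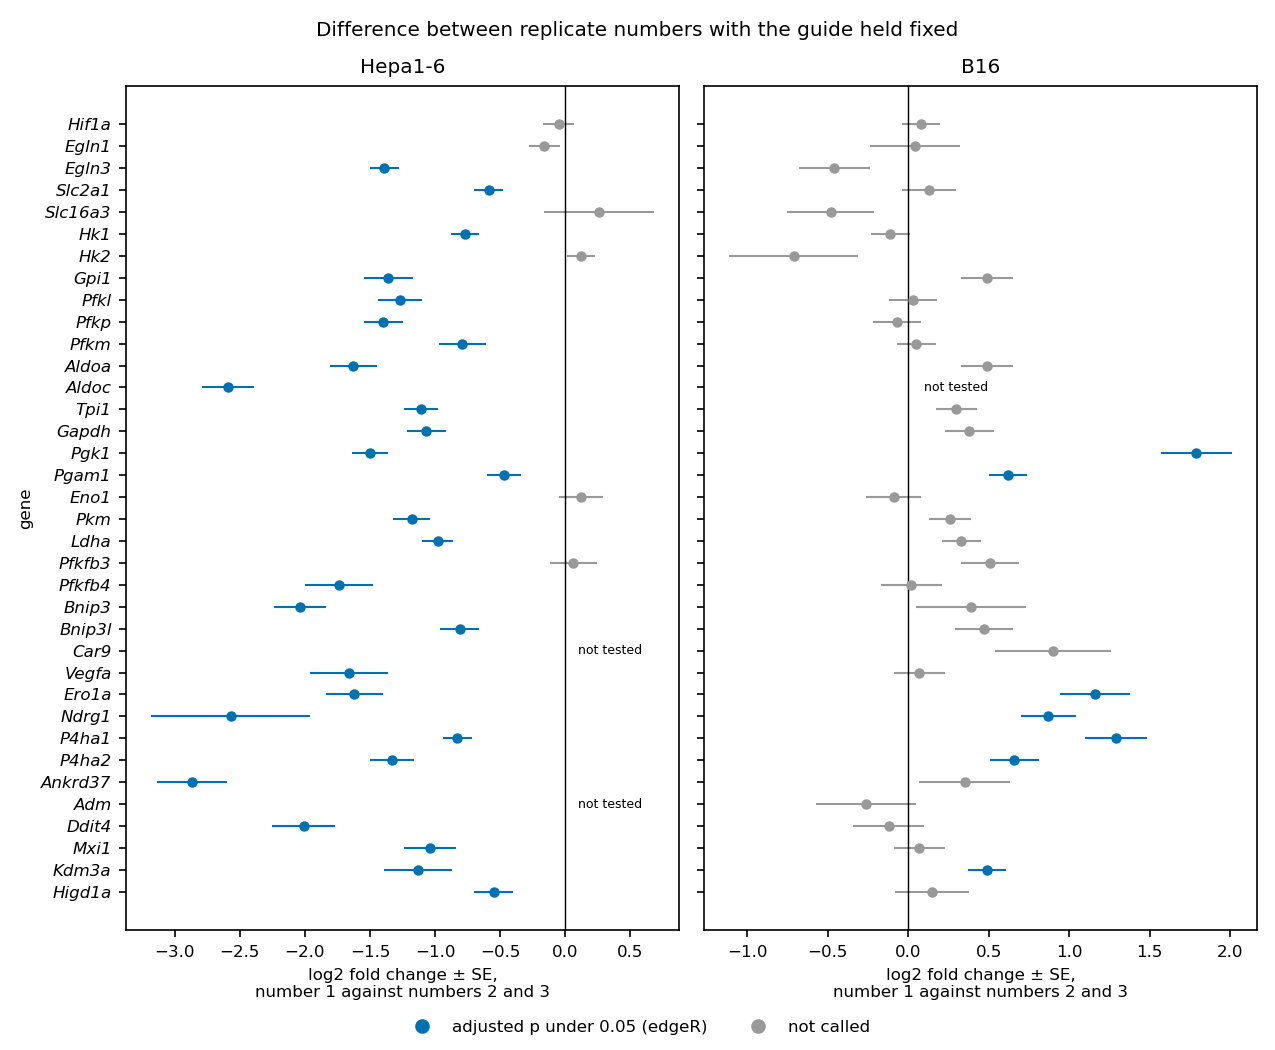
Log2 fold change with its standard error for replicate number 1 against numbers 2 and 3, with the guide held fixed, for each gene in Hepa1-6 (left) and B16 (right); blue points have an edgeR adjusted p under 0.05. In Hepa1-6 28 genes are called and all of them lie below 0, and in B16 7 are called and all lie above 0.

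The fall in number 1 held within each guide. Number 1 minus the mean of numbers 2 and 3, on the log2(CPM + 1) scale, had a median over the 34 genes of -0.94 in sgCtrl, -1.15 in sgNcor1-1 and -1.10 in sgNcor1-2, against 0.01, 0 and 0 over all genes. Ndrg1 was uneven across guides, at -0.88 in sgCtrl, -3.66 in sgNcor1-1 and -3.52 in sgNcor1-2, and so was Vegfa, at -0.68, -2.10 and -2.34. Both are nonetheless called over all guides (edgeR adjusted p of 0.014 for Ndrg1 and 0.0036 for Vegfa). Number 3 against 1 and 2 called 26 genes higher and 0 lower, against 6.17% of all genes higher, 3.65% lower and 9.83% in either direction. The low number 1 libraries are part of this contrast, so it partly repeats the result above. Mean Ddit4 was 52.97, 217.7 and 217.9 CPM in numbers 1, 2 and 3, while mean Aldoc was 7.401, 35.14 and 55.41 CPM. Without the sgNcor1-1 or the sgNcor1-2 library with number 3 the count of 26 became 0, and without either guide's library with number 1 or 2 it was 13 to 15. Number 2 against 1 and 3 called 0 genes, where edgeR called 0% of all genes, with 17 of the 34 below 0.05 before adjustment (19% of all genes), 4 called by DESeq2 and 0 by limma-voom.

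Markers of other cell types moved with the numbers in Hepa1-6. The summed level of the 5 leukocyte markers was 11.9 to 31.2 CPM in number 1, 47.6 to 95.5 CPM in number 2 and 84.0 to 106 CPM in number 3, with 1 of the 5, Cd68, over 1 CPM on average. The 6 fibroblast and endothelial markers summed to 1410 to 1590 CPM in number 1 and to 708 to 1220 CPM in the other numbers. The hepatocyte markers summed to 1100 to 1680 CPM in number 1 and to 1130 to 1300 CPM in the others, with 4 of the 8 tested called higher in number 1 and 1 lower. The 2 melanocyte markers tested were called higher, at a summed level of all 8 of 3.44 to 3.95 CPM in number 1 and 0.948 to 2.44 CPM in the others. The part of any of these markers in the results was not tested.

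In B16 the numbers divided the genes differently. Of 35 genes, 13 differed among the numbers, a share near the 30.2% of all genes. Number 1 against 2 and 3 called 7 genes, all higher. That count is near the 24.8% of all genes called in either direction (13.5% higher and 11.3% lower). DESeq2 called 15, and without the sgNcor1-1 library with number 1 edgeR called 11. The 7 genes called in the main fit were Pgk1, P4ha1, Ero1a, Ndrg1, P4ha2, Pgam1 and Kdm3a. Pgk1 was at 6418, 7699 and 5618 CPM in number 1 (sgCtrl, sgNcor1-1 and sgNcor1-2), at 3109, 2018 and 1071 CPM in number 2 and at 2384, 1686 and 1659 CPM in number 3. All number 1 libraries were above all others (1.79 ± 0.22 SE, edgeR adjusted p of 0.00367). P4ha1 was at 697, 1625 and 769 CPM in number 1 and at 286 to 488 CPM in the others (1.29 ± 0.19, edgeR adjusted p of 0.00516). Ero1a was at 5397, 5411 and 7231 CPM in number 1 and at 2061 to 4218 CPM in the others (1.16 ± 0.22, edgeR adjusted p of 0.0103).

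Number 2 in B16 also had a share of called genes close to that of all genes. Against 1 and 3 it had 4 genes higher and 5 lower, where 14% of all genes were higher, 12.6% lower and 26.5% either. Before adjustment 12 of the 35 genes were below 0.05, against 40.9% of all genes. Slc16a3 was at 346, 426 and 301 CPM in number 2 and at 105 to 275 CPM in the others (1.00 ± 0.25 SE, edgeR adjusted p of 0.0235). Hk2 was at 484, 416 and 312 CPM in number 2 and at 55.9 to 280.1 CPM in the others (1.25 ± 0.37, edgeR adjusted p of 0.0387). For both genes every number 2 library was above the other 6. Vegfa (0.56 ± 0.16) and Pfkp (0.47 ± 0.15) were the other genes called higher, with overlapping libraries for both. The genes called lower were P4ha1 (-1.03 ± 0.20), Pfkfb4 (-0.88 ± 0.20), Car9 (-1.50 ± 0.39), Pgk1 (-0.87 ± 0.23) and Gpi1 (-0.59 ± 0.17). Mean Pgk1 was 6578, 2066 and 1910 CPM in numbers 1, 2 and 3, so it was not lowest in number 2. Car9 was at 7.24, 8.66 and 4.86 CPM in number 2 and at 12.2 to 42.3 CPM in the others. All 8 melanocyte markers were called higher in number 2 as well, their summed level being 13000 to 18500 CPM there, 10400 to 13800 CPM in number 1 and 4890 to 5640 CPM in number 3; their part in these results was not tested. Number 3 against 1 and 2 called Kdm3a lower (-0.57 ± 0.12) and Pfkfb4 higher (0.85 ± 0.19), 2 of 35 genes against 3.09% of all genes (1.58% higher, 1.51% lower). The counts of called genes in B16 rested on single libraries: without the sgNcor1-1 library with number 1 the count for any difference among numbers rose to 22, and without sgNcor1-2 number 3 it dropped to 4.

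Further genes of the same biology were followed as lists beside the 36 genes. No gene of the 12 HIF pathway regulators, the 26 other glycolytic isoforms and pyruvate or lactate genes, the 13 gluconeogenesis and glycogen genes, the 7 pentose phosphate genes or the 25 other hypoxia-induced genes was called in knockout against control in either line. The nearest in Hepa1-6 was Pdk1, a kinase that keeps pyruvate out of the mitochondrial cycle. It was at 31.4, 45.5 and 39.4 CPM in the controls and at 66.1 to 89.8 CPM in the 6 knockout libraries, which do not overlap (1.08 ± 0.18 SE, edgeR adjusted p of 0.059). In the same comparison Loxl2, a collagen crosslinking enzyme, was at -2.15 ± 0.37 (adjusted p of 0.0733) and Pklr, the liver pyruvate kinase, at 0.91 ± 0.17 (adjusted p of 0.115). The nearest in B16 was Angptl4, a lipase inhibitor, at 3.32 ± 0.47 (edgeR adjusted p of 0.0671). The knockout effect on Loxl2 differed between lines (-2.24 ± 0.40, edgeR adjusted p of 0.0266), the 1 gene called in these lists for that difference.

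Replicate number touched these lists in both directions. Of all genes, 20.6% were lower and 21.3% higher in Hepa1-6 number 1, which several of these counts lie near. In Hepa1-6 number 1, 9 of the 20 other hypoxia-induced genes tested were lower and 2 higher, 5 of 21 other glycolytic and pyruvate genes were lower and 6 higher, and 3 of 8 gluconeogenesis and glycogen genes were lower. Of the 7 pentose phosphate genes, 2 were lower and 1 higher. Slc2a3 and Pdk1 stand in 2 of these lists. Slc2a3, a neuronal-type glucose importer, was at -3.06 ± 0.57 (edgeR adjusted p of 0.00338) and Hmox1, heme oxygenase, at -3.23 ± 0.41 (adjusted p of 0.000983), whereas Angptl4 was at 1.94 ± 0.17 (adjusted p of 0.00022). Of 11 HIF pathway regulators tested there, Arnt was lower (-0.48 ± 0.12, adjusted p of 0.0136) and Epas1, the HIF2 subunit gene, was higher (0.96 ± 0.28, adjusted p of 0.0223). In B16 number 1, Arnt was higher (0.55 ± 0.11, edgeR adjusted p of 0.012) and Epas1 lower (-0.71 ± 0.16, adjusted p of 0.0188), with 6 of 22 other hypoxia-induced genes higher and 2 lower (13.5% and 11.3% of all genes). The replicate numbers of the lines are separate series, and nothing in the labels ties number 1 of Hepa1-6 to number 1 of B16.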

How the data were processed

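Messenger RNA was measured in 18 libraries, 6 groups of 3. Per the submitters' processing notes, the tools were FastQC 0.12.1, Trim Galore 0.6.7, Bowtie2 2.2.5 and RSEM 1.2.8, with genome build mm10; details of the annotation are not given in the sources used here. Expected counts per gene symbol were deposited by the authors in 1 table per line, and RSEM shares reads among similar genes. Of the 36 genes, 17 had a value that was not whole (tolerance 1e-06), 7 of them in at least 9 of 18 libraries (Pfkp, Gapdh, Pgk1, Pgam1, Eno1, Pkm and Bnip3), and these are less certain. No source states strandedness. Nor does one state separate cultures within a group: the p-values then reflect spread between libraries, which may be technical.

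Counts were rounded and fitted with edgeR 4.0.16 (R 4.3.3; quasi-likelihood, robust, TMM, filterByExpr) over 12458 genes in Hepa1-6, 12347 in B16 and 14044 jointly, with Benjamini-Hochberg adjustment over all genes tested and 1 spread for the 9 libraries of a line. Replicate numbers were tested with the guide as a term. DESeq2 1.42.0, limma-voom (limma 3.58.1), other scalings and filters, left-out libraries and the replicate block were alternatives. Same-numbered libraries deviated together in B16 (correlations 0.52 to 0.79), so the numbers pair them, and not throughout in Hepa1-6 (-0.02 to 0.94). The Hepa1-6 values were -0.02 to 0.59 between control and knockout libraries and 0.76 to 0.94 between the knockout guides. No pair of libraries was alike within sampling noise. The fits were tested on simulated data.

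The 36 genes and the other lists were chosen with earlier results of these data known. All 36 are named, with up to 3 genes of smallest p from each other list. Exon lengths came from the GENCODE annotation and promoters from RefSeq.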

Additional observations from a re-analysis of the deposited data

How the results depend on the processing

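Of the counts of called genes recomputed under the alternatives, 244 stayed within 1.5 times and 41 moved. Among single-gene values 2002 kept their side of the threshold, 205 lost the call, 25 gained it and 0 reversed. Directions of uncalled fold changes were less stable, with 587 changes of sign over the 36 genes, all comparisons and all alternatives. In B16 number 1, library sizes alone turned 9 uncalled signs. The cause was not tested for any of these changes. DESeq2 called 1 gene for Hepa1-6 knockout, 1 for sgNcor1-2 alone, 4 for Hepa1-6 number 2, 21 for any B16 number difference, 15 for B16 number 1 and 9 for B16 number 3. Limma-voom called 4 for B16 number 3. Library sizes alone, which moved the median of all genes by -0.19 in B16 number 1 and 0.15 in number 3, gave 6 genes for any B16 number difference and 1 for number 3. Without a low count filter Hepa1-6 number 2 had 1, and without the 3 control libraries any B16 number difference had 2.

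Hepa1-6 libraries share only a number. With the replicate block, 3 genes were called there for knockout, Ldha (0.68, edgeR adjusted p of 0.02) and Tpi1 (0.57, 0.0394) higher and Pfkfb3 (-0.82, 0.039) lower. The block called 1 for sgNcor1-1 (Ldha) and 2 for the difference between lines (Tpi1 and Ldha). Between the controls of the lines it also called the further genes named with the control levels. With the block but without the 3 libraries numbered 1, an alternative chosen after seeing the data, Hepa1-6 had 0. That fit has fewer libraries to estimate the spread and cannot decide whether the calls depend on number 1. In B16 the block changed no knockout call, with 0 genes also without the sgNcor1-1 library numbered 1, likewise chosen after seeing the data.

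Leaving out 1 library at a time gave 0 genes throughout for knockout, single guides, guide against guide and the difference between lines. The count ran from 19 to 30 for any Hepa1-6 number difference, 24 to 28 for number 1, 0 to 10 for number 2 (10 without sgCtrl 1) and 0 to 28 for number 3. In B16 it ran from 4 to 22 for any number difference, 6 to 11 for number 1, 1 to 11 for number 2 and 0 to 16 for number 3 (16 without sgNcor1-1 number 1). The control comparison ran from 18 to 24. In Hepa1-6 number 3 the count was 0 without sgNcor1-1 3 or sgNcor1-2 3, 13 without sgNcor1-2 2, and 15 without sgNcor1-1 1, sgNcor1-1 2 or sgNcor1-2 1, and number 2 had 2 genes without sgCtrl 2. Any B16 number difference gave 22 genes without sgNcor1-1 1, 7 without sgNcor1-1 2, 5 without sgCtrl 2, sgCtrl 3 or sgNcor1-1 3, and 4 without sgNcor1-2 3. B16 number 1 had 11 without sgNcor1-1 1. B16 number 2 had 2 without sgCtrl 2 or sgNcor1-1 2, 3 without sgCtrl 3 or sgNcor1-2 2, and 1 without sgNcor1-2 3. B16 number 3 had 0 without sgCtrl 2, sgCtrl 3, sgNcor1-1 2, sgNcor1-1 3, sgNcor1-2 1 or sgNcor1-2 3.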
